A study of Homo sapiens with 21 samples.

Results

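The 10 genes studied here belong to the ERK feedback circuit and were followed across 21 RNA libraries: the Sprouty genes SPRY2 and SPRY4, the related SPRED1 and SPRED2, the dual-specificity phosphatases DUSP4, DUSP5 and DUSP6, the ETS factors ETV4 and ETV5, and PHLDA1. They were taken by symbol from a count table of 16553 genes, and all 10 were present and passed the filter on low counts. The cells were AU565, a human breast cancer line with an amplified ERBB2 gene, labelled wild type, grown flat as monolayers or as aggregates in a liquid overlay with 5% matrigel. Trastuzumab is an antibody against HER2, the receptor tyrosine kinase that ERBB2 encodes. There were 7 groups of 3 libraries. Untreated monolayers had no antibody. Acutely exposed monolayers had 20 µg/ml for 24 h. Primed monolayers had that exposure and 96 h more in culture. Untreated aggregates were grown for 96 h. Primed aggregates came from cells exposed as monolayers to 20 µg/ml for 24 h and then grown as aggregates for 96 h. Treated aggregates had 50 µg/ml for 24 h after their 96 h, and primed and treated aggregates had both exposures. Aggregates given the late dose were thus 24 h older than the others, and all groups are a single cell line. No group of untreated monolayers had the 96 h of later culture. Between primed and untreated monolayers, exposure and culture time therefore cannot be told apart. Untreated aggregates also differed from untreated monolayers by those 96 h and by matrigel, which cannot be told apart from the form of culture.

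HER2 and other receptor tyrosine kinases switch on RAS, which passes its signal through RAF and MEK to the ERK kinases. Active ERK raises transcription of its own brakes: Sprouty and SPRED proteins act on the cascade at the level of RAS and RAF, and dual-specificity phosphatases remove the activating phosphates from ERK. Transcripts of these genes, with those of the ETS factors ETV4 and ETV5 and of PHLDA1, are widely used as readouts of ERK output. In cells driven by HER2, blocking the receptor also releases other feedback loops, so that receptors such as HER3 and the insulin receptor can rise.

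Levels are counts scaled to library size with TMM factors (CPM). Changes are log2 fold changes of edgeR's quasi-likelihood test with their standard error (SE), and a gene was called at a Benjamini-Hochberg adjusted p under 0.05 over 15969 tested genes. Nothing in the labels ties the replicates to separate cultures, so each p measures the spread between these samples, which may be technical. In bulk RNA, fewer cells of a type and less RNA per cell cannot be told apart. Total counts ran from 15005070 to 26921113 per library. Of the 9 epithelial markers of AU565, CDH1 (0.0449 to 3.05 CPM) and GATA3 (2.41 to 11.8 CPM) were low in every library.

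Transcripts of other tissues divide the libraries. The melanocyte gene TYRP1 was at 5.7 to 33.1 CPM in 12 libraries, those of monolayers untreated or acutely exposed and of aggregates untreated or primed, and at 0 to 0.256 CPM in the other 9. The kidney gene UMOD was at 0.825 to 22.8 CPM in those 9 and at most 0.0588 CPM in the 12. MYH7, a myosin of heart muscle, reached 20.6 to 87.4 CPM in 6 libraries (untreated monolayers 1 and 2, acutely exposed monolayers 2 and 3, untreated aggregates 1 and 2) and at most 0.11 CPM in the other 15. Comparisons of primed monolayers, or of aggregates given the late dose, with any of the other 4 groups therefore cross the 2 sets, and there the set and the treatment cannot be told apart. The aggregate, acute and primed aggregate comparisons lie within the 12 libraries, but melanocyte transcripts varied there too: the summed level of the 6 markers was 48.3 to 107 CPM in untreated monolayers, 34.3 to 91.3 CPM in acutely exposed ones, 16.2 to 22.2 CPM in untreated aggregates and 53.4 to 91.3 CPM in primed aggregates. The comparison of both groups given the late dose lies within the 9.

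RefSeq promoter windows (GRCh38.p14) were matched for 6 of the 10 genes, SPRY2, SPRY4, SPRED1, SPRED2, DUSP6 and PHLDA1, with 9 start sites between them. The stretches printed here belong to both Sprouty genes, whose levels moved differently, and to SPRED2, whose level moved with that of SPRY4. They are the parts upstream of a start that lie outside annotated exons, 5′ to 3′ on the minus strand, with capitals where AGGAAG (the PEA3 motif, the family of ETV4 and ETV5) or CCGGAA (a general ETS motif) occurs on either strand.
SPRY2 chr13:80341127-80341376: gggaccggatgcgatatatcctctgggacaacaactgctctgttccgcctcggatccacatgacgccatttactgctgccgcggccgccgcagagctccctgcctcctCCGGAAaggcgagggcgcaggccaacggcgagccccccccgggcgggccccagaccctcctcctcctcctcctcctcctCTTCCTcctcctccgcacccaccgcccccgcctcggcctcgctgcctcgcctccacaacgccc
SPRY4 chr5:142324418-142324497: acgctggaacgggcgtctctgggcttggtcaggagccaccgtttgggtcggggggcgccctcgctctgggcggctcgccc
SPRED2 chr2:65432638-65432849: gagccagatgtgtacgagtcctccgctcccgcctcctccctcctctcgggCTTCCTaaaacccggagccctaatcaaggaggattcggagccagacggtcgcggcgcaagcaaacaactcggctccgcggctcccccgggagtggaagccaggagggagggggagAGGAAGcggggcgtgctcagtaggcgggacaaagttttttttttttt
AGGAAG was found in 7 of the 9 windows of 250 bases, in 4 of the 6 genes, against 28.7% of 35116 promoter windows of that length. CCGGAA, which shares its GGAA core with AGGAAG, was found in 2 of the 9 windows (SPRY2 and PHLDA1), against 14.5%. TGANTCA (AP-1), TGACGTCA (a cyclic AMP response element) and TGTTTAC (FOXO), also searched on both strands, were in none of the 9 windows, against 6.57%, 1.65% and 2.98% of all windows. These matches are letters in a window and not measured binding.

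The 10 genes did not all change in the same comparisons or in the same direction. In untreated aggregates against untreated monolayers, 8 of 10 were higher and 1 lower, where 32.9% of all tested genes were higher and 31.1% lower. Their median log2 change was 1.11, against 0.01 over all genes, and ETV5 was the 1 call lost without the 6 libraries with MYH7. After acute trastuzumab in monolayers, 7 of 10 were higher and 0 lower, where 11.3% of all tested genes were higher and 8.91% lower. Their median change was 0.84 (all genes -0.02), and the same 7 calls were made without the 6 libraries with MYH7, which leaves 1 library in each group. In primed monolayers 6 were higher and 2 lower than in untreated ones, against backgrounds of 33.7% and 31.6%, so most genes of the genome-wide table moved in that comparison too.

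Comparisons among aggregates follow. Primed aggregates had 4 members higher and 1 lower than untreated aggregates (all genes 11.5% and 9.66%). The changes of DUSP5, ETV5 and PHLDA1 there were -0.56, 0.75 and 0.46 with all libraries. They were -0.48, 1.89 and 0.54 without the libraries with MYH7, which leaves 1 untreated aggregate library. Treated aggregates had 4 higher and 3 lower (all genes 18.8% and 17.9%), and those both primed and treated had 3 higher and 4 lower (17.6% and 17.9%). These comparisons share the 3 untreated aggregate libraries. Against treated aggregates, the primed and treated ones had 0 members higher and 1 lower (3.18% and 4.8%), and against primed aggregates 0 higher and 4 lower (14.9% and 14.8%). The map of changes gives each member in each comparison.

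**Figure D1:**
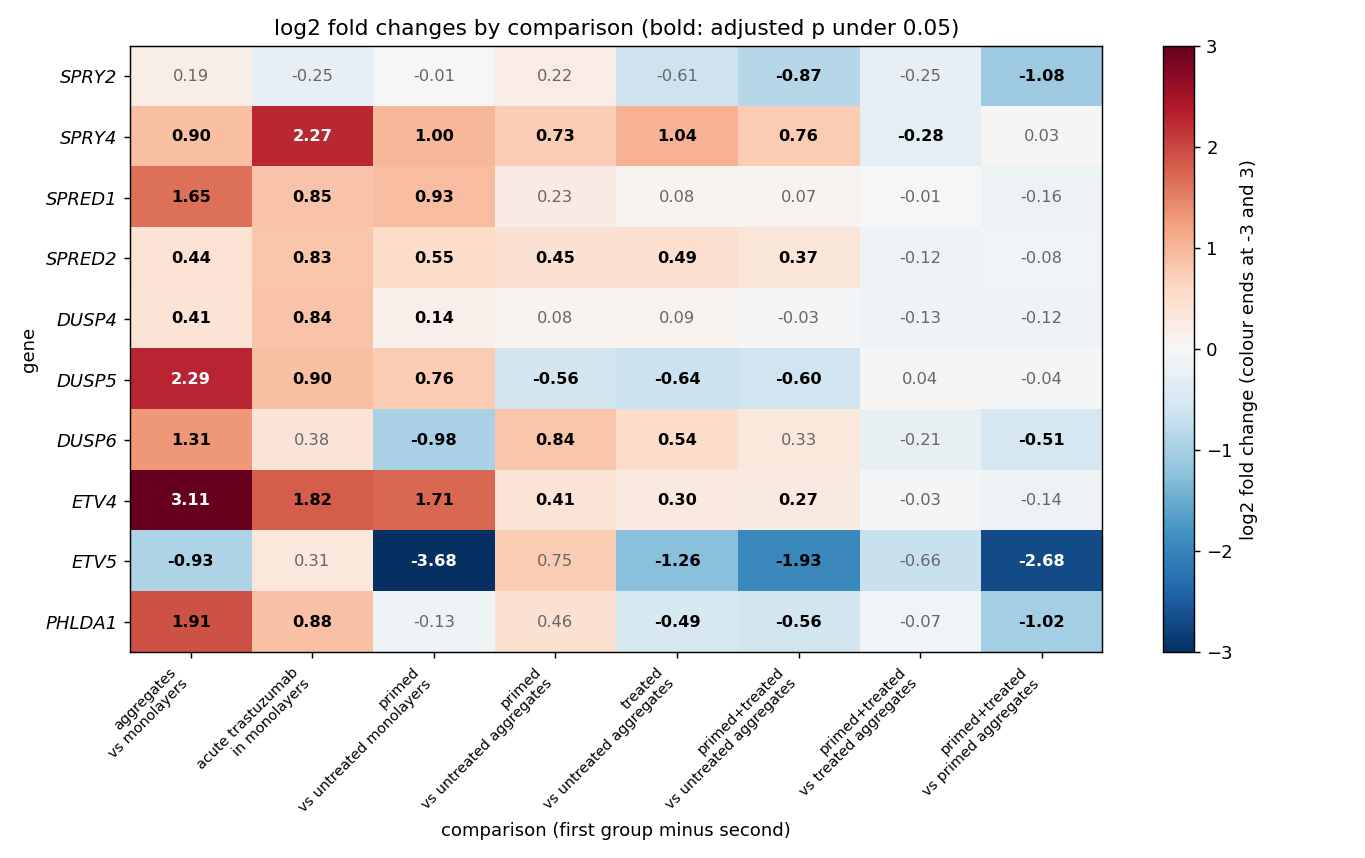
log2 fold changes (colour and printed value) of the 10 genes (rows) in 8 comparisons (columns), from edgeR with 3 libraries a group; bold marks an adjusted p under 0.05. SPRY4, SPRED2 and ETV4 were called higher in all 6 comparisons with an untreated group, and ETV5 was lower in 5 of the 8 comparisons.

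**Figure D2:**
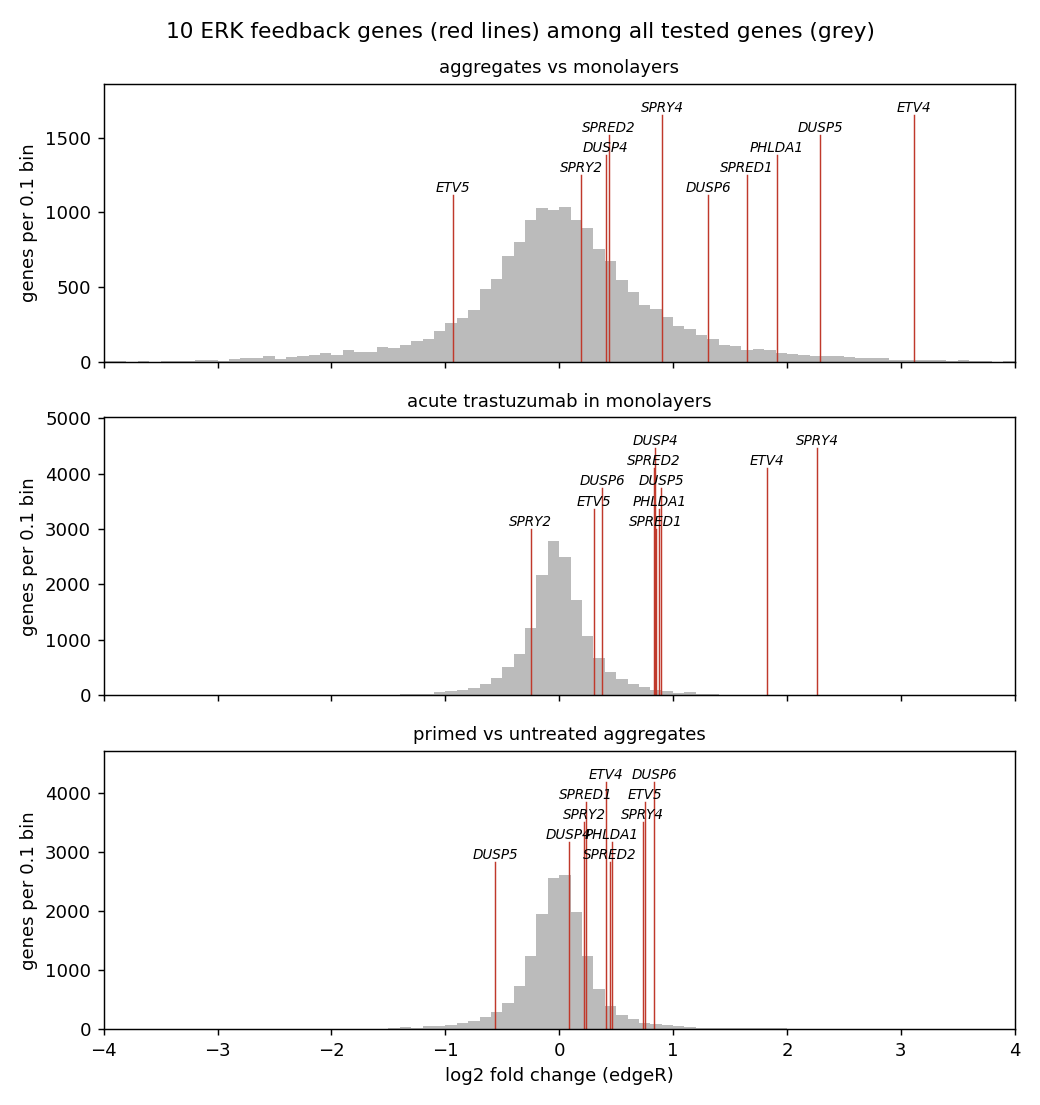
Number of tested genes in each 0.1-wide bin of log2 fold change (grey) in 3 comparisons, with the 10 genes as red lines whose height carries no meaning. All but ETV5 lie to the right of 0 in aggregates against monolayers, all but SPRY2 after acute exposure, and all but DUSP5 after priming of aggregates.

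SPRY4, a Sprouty protein that restrains signalling from receptor to RAS and RAF, gave the largest acute response of the 10. Untreated monolayers held it at 21.8, 22.9 and 22.7 CPM and acutely exposed ones at 105, 108 and 112 CPM. All 3 exposed libraries stood far above the untreated ones, a 4.81-fold rise (log2 2.27, SE 0.0673, edgeR adjusted p = 2.08e-23). Primed monolayers were at 45.4, 44.3 and 45.4 CPM, above untreated and below acutely exposed libraries with no overlap (log2 1.0 against untreated, SE 0.0712, edgeR adjusted p = 2.47e-14). Untreated aggregates held 40.8, 42.4 and 42.8 CPM, again above every untreated monolayer (log2 0.90, SE 0.0708, edgeR adjusted p = 2.8e-13).

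SPRY4 was also higher in every exposed group of aggregates. Primed aggregates were at 67.9, 75.9 and 65.6 CPM (log2 0.73, SE 0.0654, edgeR adjusted p = 4.88e-10). Treated aggregates were at 90.6, 83.0 and 86.2 CPM (log2 1.04, SE 0.0642, edgeR adjusted p = 1.72e-14). Aggregates both primed and treated were at 70.1, 65.0 and 78.3 CPM (log2 0.76, SE 0.0645, edgeR adjusted p = 2.93e-11). The doubly exposed libraries overlapped the primed ones (log2 0.03, edgeR adjusted p = 0.771) and all lay under the treated ones, from which they differed by -0.28 (SE 0.0606, edgeR adjusted p = 0.00201). SPRY4 was the only member called between both groups given the late dose in the fit of all libraries. Over the 7 groups the order of means was acutely exposed monolayers (108 ± 3.46 CPM, SD, n = 3), treated aggregates (86.6 ± 3.84), primed and treated aggregates (71.1 ± 6.73), primed aggregates (69.8 ± 5.40), primed monolayers (45.04 ± 0.630), untreated aggregates (42.0 ± 1.02) and untreated monolayers (22.4 ± 0.579). Only the neighbours at 71.1 and 69.8 CPM overlapped.

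SPRY2, the other Sprouty gene, stayed at 1.16 to 4.15 CPM in all libraries, on 25 to 87 counts each, and no 2 neighbours in its order of group means were separated. It was at 2.58, 3.32 and 1.16 CPM in untreated monolayers and at 2.20, 1.99 and 1.81 CPM after acute exposure, so the exposed libraries lay within the untreated range (log2 -0.25, SE 0.288, edgeR adjusted p = 0.603). It was lower in primed and treated aggregates (1.75, 1.68 and 1.07 CPM) than in untreated aggregates (2.35, 3.47 and 2.26 CPM) by -0.87 (SE 0.296, edgeR adjusted p = 0.0217) and than in primed aggregates (2.25, 2.98 and 4.15 CPM) by -1.08 (SE 0.289, edgeR adjusted p = 0.00453). The groups did not overlap in either comparison, but both cross the library sets. The first call was lost without untreated aggregate 2 (log2 -0.64), without doubly exposed aggregate 3 (-0.66) or without the 6 libraries with MYH7 (-0.60), and the second without primed aggregate 3 (-0.81, edgeR adjusted p = 0.0613).

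SPRED2, which like SPRED1 binds neurofibromin and holds RAS in check, followed the pattern of SPRY4 with smaller steps. It was at 35.5, 35.2 and 34.3 CPM in untreated monolayers, at 65.5, 59.6 and 61.7 CPM after acute exposure and at 53.0, 48.3 and 52.6 CPM in primed monolayers. The 3 groups did not overlap, and the rises were 0.83 (SE 0.0599, edgeR adjusted p = 1.02e-12) and 0.55 (SE 0.0619, edgeR adjusted p = 1.45e-09) on the log2 scale. Untreated aggregates had 45.2, 49.0 and 48.0 CPM, above the untreated monolayers (log2 0.44, SE 0.0615, edgeR adjusted p = 1.38e-07). Each exposed group of aggregates was higher than these: primed at 64.7, 66.3 and 63.1 CPM (log2 0.45, SE 0.0595, edgeR adjusted p = 1.09e-06), treated at 67.7, 65.5 and 67.1 CPM (log2 0.49, SE 0.0588, edgeR adjusted p = 3.59e-08), and both at 57.4, 61.7 and 64.9 CPM (log2 0.37, SE 0.0588, edgeR adjusted p = 6.31e-06). No library of an exposed aggregate fell into the untreated range, and primed aggregates overlapped both groups given the late dose, which did not overlap each other.

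SPRED1 was called higher in both exposed groups of monolayers and in no exposed group of aggregates in the fit of all libraries. Its levels were 17.3, 15.4 and 14.2 CPM in untreated monolayers, 23.0, 30.7 and 30.03 CPM after acute exposure and 23.9, 31.7 and 33.4 CPM in primed monolayers. Both exposed groups lay above the untreated one and overlapped each other (log2 0.85, SE 0.107, edgeR adjusted p = 1e-06, and 0.93, SE 0.110, edgeR adjusted p = 2.48e-08). Untreated aggregates were at 46.3, 46.7 and 53.5 CPM, above every monolayer library (log2 1.65, SE 0.104 against untreated monolayers, edgeR adjusted p = 8.41e-14). Primed aggregates were at 54.8, 61.3 and 56.0 CPM, above every untreated aggregate. Treated and doubly exposed aggregates ran from 50.0 to 52.9 CPM. None of those 3 groups was called against untreated aggregates, with log2 changes of 0.23 (primed, SE 0.0939, edgeR adjusted p = 0.0765), 0.08 (treated, adjusted p = 0.528) and 0.07 (both, adjusted p = 0.581). The primed aggregates were called without untreated aggregate 3 (log2 0.30, edgeR adjusted p = 0.0394) and in a fit of those groups alone (0.23, edgeR adjusted p = 0.046).

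**Figure D3:**
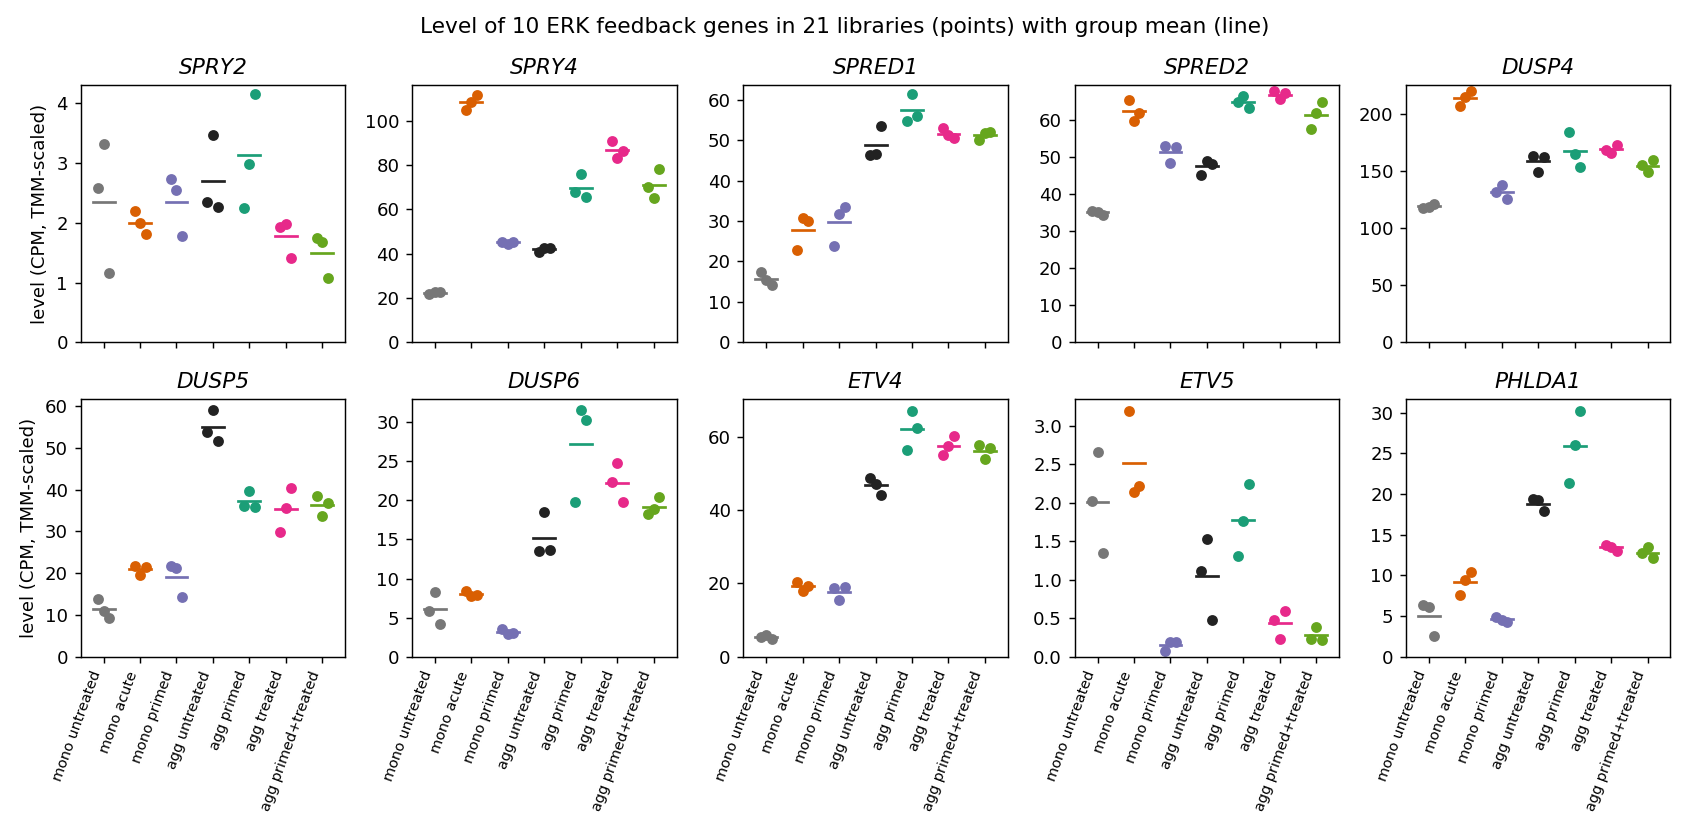
Level in CPM (vertical axis, linear, from 0) of each of the 10 genes in the 21 libraries (points), by group, with the group mean as a line. SPRY4, SPRED2 and DUSP4 have their highest or near-highest monolayer level after acute exposure. In SPRED1, DUSP5, DUSP6, ETV4 and PHLDA1 every aggregate library lies above every monolayer one. SPRY2 and ETV5 lie under 5 CPM throughout.

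DUSP4, a nuclear phosphatase of ERK and related kinases, was the most abundant member. It stood at 118, 119 and 121 CPM in untreated monolayers and at 207, 215 and 220 CPM after acute exposure, with a wide gap between the groups (log2 0.84, SE 0.0558, edgeR adjusted p = 1.06e-13). Primed monolayers were at 132, 138 and 125 CPM. These lay only just above the untreated libraries (log2 0.14, SE 0.0569, edgeR adjusted p = 0.0287), and the call was lost without untreated monolayer 1 or 2 (0.13 and 0.14), without primed monolayer 2 (0.10), with DESeq2 (0.13), with RLE size factors (0.13), in a fit of those groups alone (0.11) and without the libraries with MYH7 (0.12). Untreated aggregates had 163, 150 and 163 CPM, above untreated monolayers (log2 0.41, SE 0.0563, edgeR adjusted p = 9.58e-08). Primed (185, 165 and 154 CPM), treated (168, 166 and 173 CPM) and doubly exposed aggregates (155, 149 and 160 CPM) were not called against them (edgeR adjusted p = 0.333, 0.193 and 0.664). Untreated aggregates overlapped the primed and the doubly exposed ones and lay under the treated ones. Doubly exposed aggregates were called lower than primed ones without primed aggregate 3 (-0.18, edgeR adjusted p = 0.0245), and lower than treated ones in a fit of those groups alone (-0.13, edgeR adjusted p = 0.0388).

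DUSP5, an ERK-specific nuclear phosphatase, was higher in exposed than in untreated monolayers and lower in exposed than in untreated aggregates. Untreated monolayers held 13.8, 10.8 and 9.34 CPM, acutely exposed ones 21.8, 19.6 and 21.5 CPM (log2 0.90, SE 0.147, edgeR adjusted p = 0.00013) and primed ones 21.6, 21.3 and 14.2 CPM (log2 0.76, SE 0.154, edgeR adjusted p = 0.000203). No exposed library reached down into the untreated range. Untreated aggregates had the highest levels of all, 53.8, 59.2 and 51.8 CPM, and did not overlap any other group (log2 2.29, SE 0.139 against untreated monolayers, edgeR adjusted p = 5.68e-12). Primed aggregates were at 36.2, 39.7 and 35.9 CPM (log2 -0.56, SE 0.124, edgeR adjusted p = 0.00259), treated ones at 29.8, 35.7 and 40.4 CPM (log2 -0.64, SE 0.123, edgeR adjusted p = 0.000337) and doubly exposed ones at 38.5, 33.7 and 36.8 CPM (log2 -0.60, SE 0.122, edgeR adjusted p = 0.000648). The 3 exposed groups overlapped one another. The call in primed aggregates was lost without the 6 libraries with MYH7 (log2 -0.48, edgeR adjusted p = 0.0861).

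DUSP6, the cytoplasmic phosphatase specific to ERK and a common marker of its activity, did not follow DUSP4 and DUSP5. It was at 5.84, 8.27 and 4.16 CPM in untreated monolayers and at 8.40, 7.82 and 7.90 CPM after acute exposure. The groups overlapped and the change was not called (log2 0.38, SE 0.216, edgeR adjusted p = 0.247). It was called without untreated monolayer 2, the highest of its group (log2 0.70, edgeR adjusted p = 0.0225). Primed monolayers had the lowest levels of all groups, 3.49, 2.87 and 3.04 CPM, with no overlap (log2 -0.98 against untreated, SE 0.267, edgeR adjusted p = 0.00344), in a comparison that crosses the library sets. Without the libraries with MYH7 that change was -0.41 (edgeR adjusted p = 0.265).

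In aggregates DUSP6 was higher throughout. Untreated aggregates held 13.6, 18.5 and 13.7 CPM, above every monolayer library (log2 1.31, SE 0.205, edgeR adjusted p = 1.47e-05). Primed aggregates rose to 19.8, 31.5 and 30.4 CPM, with all 3 above the untreated ones (log2 0.84, SE 0.179, edgeR adjusted p = 0.00237). Treated aggregates were at 22.4, 24.8 and 19.8 CPM, also above them (log2 0.54, SE 0.179, edgeR adjusted p = 0.0236), but that call was lost without untreated aggregate 1 (0.46) or 3 (0.46) or treated aggregate 1 (0.53) or 2 (0.46). Doubly exposed aggregates, at 18.3, 18.9 and 20.4 CPM, were not called against untreated aggregates (log2 0.33, SE 0.180, edgeR adjusted p = 0.174), except in a fit of those groups alone (0.33, edgeR adjusted p = 0.0337). They were called lower than primed aggregates (log2 -0.51, SE 0.171, edgeR adjusted p = 0.031) although the groups overlapped, and not with DESeq2 (-0.50, adjusted p = 0.0516) nor without primed aggregate 2 or 3 (-0.40 and -0.42) or doubly exposed aggregate 1 or 2 (-0.48 and -0.50).

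ETV4, a PEA3-family ETS transcription factor whose transcription follows ERK signalling, had the largest difference between untreated aggregates and untreated monolayers. Untreated monolayers held 5.39, 5.97 and 4.76 CPM and untreated aggregates 48.8, 47.3 and 44.2 CPM. Every aggregate library was far above every monolayer one, an 8.65-fold difference (log2 3.11, SE 0.0959, edgeR adjusted p = 3.91e-24). In monolayers it rose to 20.4, 17.9 and 19.2 CPM after acute exposure (log2 1.82, SE 0.103, edgeR adjusted p = 1.71e-15) and was at 18.8, 15.3 and 19.0 CPM in primed monolayers (log2 1.71, SE 0.107, edgeR adjusted p = 9.23e-16). Both exposed groups overlapped each other and stood clear of the untreated one. In aggregates the steps were small: primed 56.5, 67.2 and 62.6 CPM (log2 0.41, SE 0.0741, edgeR adjusted p = 0.000107), treated 55.0, 57.4 and 60.3 CPM (log2 0.30, SE 0.0736, edgeR adjusted p = 0.00147) and both 57.9, 53.9 and 57.1 CPM (log2 0.27, SE 0.0735, edgeR adjusted p = 0.00441). All 9 exposed aggregate libraries lay above the 3 untreated ones, and the exposed groups overlapped. Doubly exposed aggregates were called lower than primed ones only without primed aggregate 1 (-0.21, edgeR adjusted p = 0.0378).

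ETV5, the close relative of ETV4, was the lowest member, and its levels divided the libraries as TYRP1 did. It was at 2.02, 2.65 and 1.34 CPM in untreated monolayers, at 3.19, 2.13 and 2.22 CPM after acute exposure and at 0.0685, 0.192 and 0.190 CPM in primed monolayers. Untreated aggregates held 1.12, 1.53 and 0.476 CPM, primed ones 1.30, 1.76 and 2.24 CPM, treated ones 0.473, 0.229 and 0.598 CPM, and doubly exposed ones 0.224, 0.378 and 0.221 CPM. Thus the 12 libraries with TYRP1 had 8 to 68 counts of ETV5 each and the other 9 had 1 to 14. Only untreated aggregate 3 (0.476 CPM) came into the range of the 9. The summed level of the 6 melanocyte markers was 16.2 to 107 CPM in the 12 libraries and 1.64 to 4.2 CPM in the 9, and its part in the result was not tested. Within the 12, mean ETV5 was 2.00 CPM in untreated and 2.51 CPM in acutely exposed monolayers. Untreated aggregates had 1.04 CPM and primed ones 1.77 CPM. The marker sum was 48.3 to 107, 34.3 to 91.3, 16.2 to 22.2 and 53.4 to 91.3 CPM in those groups, in that order.

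Within the 12 libraries, acute exposure (log2 0.31, SE 0.301, edgeR adjusted p = 0.531) and priming of aggregates (log2 0.75, SE 0.348, edgeR adjusted p = 0.127) gave no call for ETV5. The priming of aggregates was called without untreated aggregate 2 (1.15, edgeR adjusted p = 0.0495) and without the 6 libraries with MYH7 (1.89, edgeR adjusted p = 0.0274). ETV5 was lower in untreated aggregates than in untreated monolayers by -0.93 (SE 0.339, edgeR adjusted p = 0.0169), with overlapping groups. That call was lost without untreated monolayer 2 (-0.65), untreated aggregate 3 (-0.60) or the libraries with MYH7 (-1.48, edgeR adjusted p = 0.0798). Across the sets it was lower in primed monolayers by -3.68 (SE 0.501, edgeR adjusted p = 8.21e-08), in treated aggregates by -1.26 (SE 0.415, edgeR adjusted p = 0.0159), and in doubly exposed aggregates by -1.93 against untreated (SE 0.445, edgeR adjusted p = 0.000871) and -2.68 against primed aggregates (SE 0.411, edgeR adjusted p = 6e-06). The call in treated aggregates was lost without untreated aggregate 2 (-0.87), without treated aggregate 2 (-0.97), with limma voom (-1.20) and without the libraries with MYH7 (-0.12), and that in doubly exposed against untreated aggregates without the libraries with MYH7 (-0.79).

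**Figure D4:**
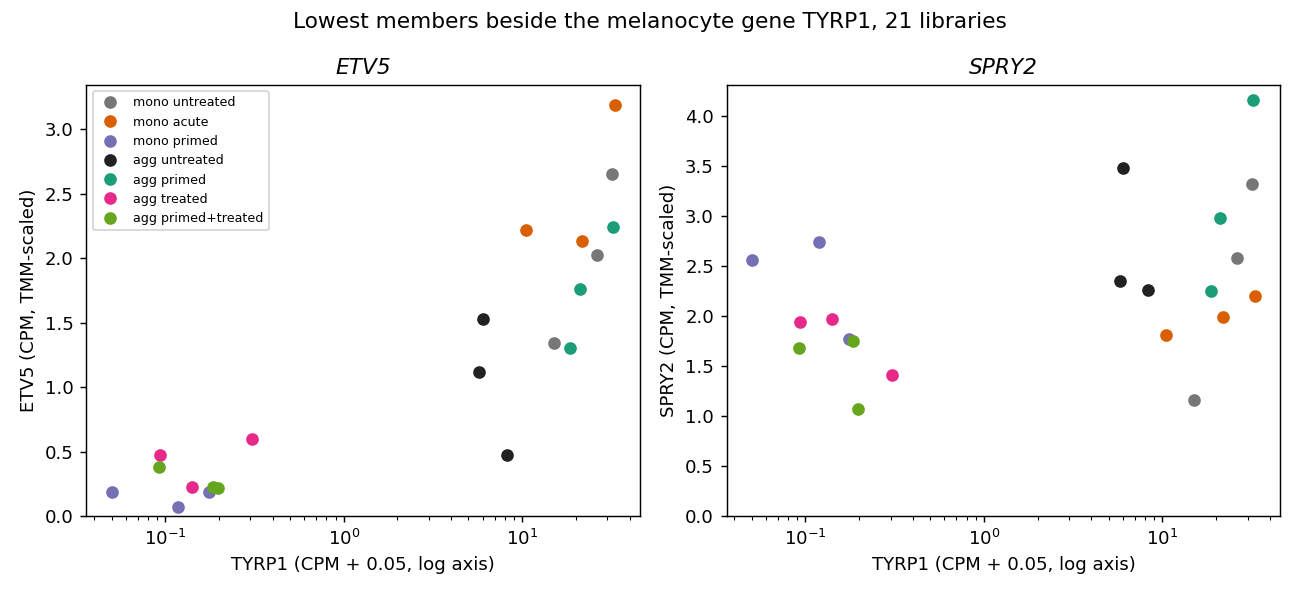
Level of ETV5 (left) and SPRY2 (right) in CPM against the melanocyte gene TYRP1 (CPM plus 0.05, log axis) in the 21 libraries, coloured by group. The 9 libraries at or under 0.256 CPM of TYRP1 have 0.0685 to 0.598 CPM of ETV5, a range that also holds untreated aggregate 3 (0.476 CPM), while SPRY2 spans 1.07 to 2.74 CPM in the 9 and 1.16 to 4.15 CPM in the 12.

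PHLDA1, a pleckstrin homology-like protein induced through ERK and known to damp receptor signalling, was at 6.35, 6.16 and 2.54 CPM in untreated monolayers, 7.64, 9.43 and 10.4 CPM after acute exposure and 4.93, 4.47 and 4.30 CPM in primed monolayers. All acutely exposed libraries were above the untreated ones (log2 0.88, SE 0.206, edgeR adjusted p = 0.0039), though a fit of those groups alone made no call (0.88, edgeR adjusted p = 0.106). Primed monolayers lay within the untreated range (log2 -0.13, SE 0.239, edgeR adjusted p = 0.643), whose lowest value was untreated monolayer 3. Without that library the change was -0.45 (edgeR adjusted p = 0.0152). Without the libraries with MYH7, which leaves that library alone, it was 0.84 (edgeR adjusted p = 0.00446), so its direction hangs on which untreated libraries are kept. The same holds for SPRY2, which changed by -0.01 with all libraries (edgeR adjusted p = 0.973) and by 1.02 without those with MYH7 (edgeR adjusted p = 0.0383).

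In aggregates PHLDA1 was at 19.3, 19.2 and 17.9 CPM untreated, above all monolayers (log2 1.91, SE 0.195, edgeR adjusted p = 2.38e-08). Primed aggregates had 21.3, 26.1 and 30.3 CPM, above the untreated ones without passing the test (log2 0.46, SE 0.167, edgeR adjusted p = 0.0535). They passed with DESeq2 (0.46), limma voom (0.46), a fit of those groups alone (0.46), without primed aggregate 1 (0.58) and without the libraries with MYH7 (0.54). Treated aggregates, at 13.8, 13.5 and 13.02 CPM, were lower than untreated ones (log2 -0.49, SE 0.173, edgeR adjusted p = 0.032), and so were those both primed and treated, at 12.7, 13.5 and 12.2 CPM (log2 -0.56, SE 0.173, edgeR adjusted p = 0.0154). Neither group overlapped the untreated one. The first of those calls was lost without untreated aggregate 1 or 2 (-0.48 each) or treated aggregate 1, 2 or 3 (-0.51, -0.49 and -0.47), and the second without doubly exposed aggregate 3 (-0.53). Against primed aggregates the doubly exposed ones were lower by -1.02 (SE 0.169, edgeR adjusted p = 9.6e-05), again with no overlap.

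Whether an early exposure alters the effect of the late dose was read from the difference between priming in treated and priming in untreated aggregates, where each side stays within its own library set. The difference was called for 5 members, 1 higher and 4 lower, against 5.05% and 7.42% of all tested genes. In untreated aggregates priming raised SPRY4, SPRED2, DUSP6 and ETV4 and lowered DUSP5. In treated aggregates SPRY4 alone was called, and was lower. The difference was -1.01 for SPRY4 (SE 0.0892, edgeR adjusted p = 8.19e-10), -0.57 for SPRED2 (SE 0.0822, edgeR adjusted p = 7.62e-06), -1.05 for DUSP6 (SE 0.248, edgeR adjusted p = 0.00803) and -0.44 for ETV4 (SE 0.103, edgeR adjusted p = 0.00308). For DUSP5 it was 0.60 (SE 0.175, edgeR adjusted p = 0.0272), and that call was lost on leaving out any of 7 single libraries (primed 1 or 3, untreated 2, treated 1 or 2, doubly exposed 1 or 3, with log2 values of 0.50 to 0.61 and edgeR adjusted p from 0.0505 to 0.0682) or those with MYH7 (0.52, adjusted p = 0.145). The other 5 members were not called, ETV5 at -1.42 (edgeR adjusted p = 0.129) and PHLDA1 at -0.54 (edgeR adjusted p = 0.164) among them. DUSP4 passed without primed aggregate 3 (-0.26), PHLDA1 in a fit of the aggregates alone (-0.54) and without the libraries with MYH7 (-0.61), and ETV5 without those libraries (-2.56).

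**Figure D5:**
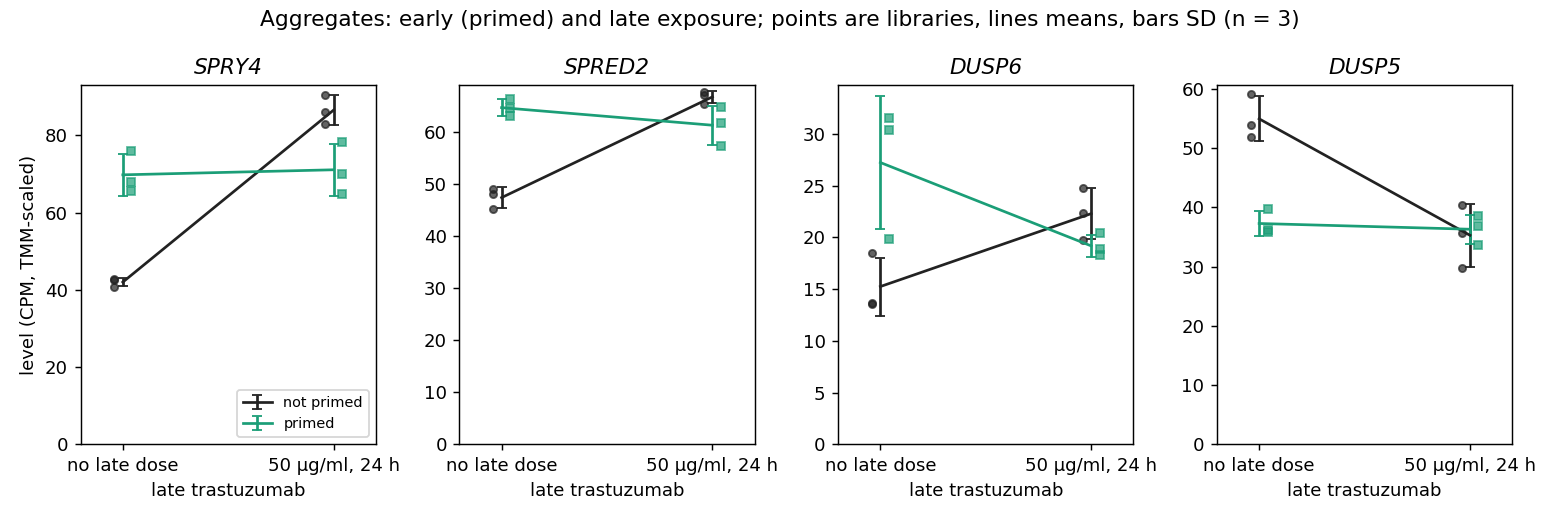
Level in CPM (linear axis from 0) of SPRY4, SPRED2, DUSP6 and DUSP5 in aggregates without and with the late dose of 50 µg/ml, for unprimed (black) and primed (green) cells; points are libraries, lines join means, bars are SD (n = 3). Priming separates the libraries on the left of each panel (SPRY4 40.8 to 42.8 against 65.6 to 75.9 CPM), while on the right DUSP6 and DUSP5 overlap and SPRY4 and SPRED2 do not.

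The first exposure to trastuzumab gave 7 members higher and 0 lower in monolayers (all genes 11.3% and 8.91%). In aggregates it gave 4 higher and 3 lower (all genes 18.8% and 17.9%), and 4 to 6 called members when 1 library was left out. The difference between the responses was tested directly. The difference, aggregates minus monolayers, was called higher for 0 members and lower for 8, where 11.3% of all tested genes were higher and 12.2% lower. The differences were -1.22 for SPRY4 (SE 0.0928, edgeR adjusted p = 9.15e-12), -0.76 for SPRED1 (SE 0.142, edgeR adjusted p = 0.000229), -0.34 for SPRED2 (SE 0.0839, edgeR adjusted p = 0.00317), -0.75 for DUSP4 (SE 0.0786, edgeR adjusted p = 1.02e-08) and -1.54 for DUSP5 (SE 0.192, edgeR adjusted p = 5.46e-06). ETV4 differed by -1.52 (SE 0.127, edgeR adjusted p = 9.42e-11), ETV5 by -1.57 (SE 0.513, edgeR adjusted p = 0.0239) and PHLDA1 by -1.37 (SE 0.269, edgeR adjusted p = 0.000814). SPRY2 (-0.36, edgeR adjusted p = 0.582) and DUSP6 (0.16, edgeR adjusted p = 0.738) were not called. The doses were 50 µg/ml in aggregates and 20 µg/ml in monolayers, and treated aggregates lie in the other library set from the 3 other groups. Treated aggregates were also 24 h older than untreated ones. None of these can be told apart here from the form of culture. The call for ETV5 was lost without acutely exposed monolayer 1 (-1.37), untreated monolayer 3 (-1.34), untreated aggregate 2 (-1.17) or treated aggregate 2 (-1.28), or without the libraries with MYH7 (-1.37).

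A comparison that keeps to the 12 libraries set the lasting effect of the 20 µg/ml exposure in aggregates beside its effect after 24 h in monolayers. The sides thus differ in form of culture and in time since exposure. The difference, aggregates minus monolayers, was called higher for 0 members and lower for 6, against 6.85% and 8.25% of all tested genes. SPRY4 differed by -1.54 (SE 0.0936, edgeR adjusted p = 1.82e-13), SPRED1 by -0.61 (SE 0.143, edgeR adjusted p = 0.00381), SPRED2 by -0.38 (SE 0.0844, edgeR adjusted p = 0.00167), DUSP4 by -0.76 (SE 0.0788, edgeR adjusted p = 1.99e-08), DUSP5 by -1.46 (SE 0.192, edgeR adjusted p = 2.6e-05) and ETV4 by -1.41 (SE 0.128, edgeR adjusted p = 1.14e-09). Without the libraries with MYH7 the calls for SPRED1 (-0.59, edgeR adjusted p = 0.13) and SPRED2 (-0.51, edgeR adjusted p = 0.0579) were lost. SPRY2 (0.47) and ETV5 (0.45) were not called. DUSP6 was not called either (0.46, edgeR adjusted p = 0.324) and is the member whose rise passed after priming of aggregates and not after acute exposure of monolayers.

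Of the receptors upstream, ERBB2 moved by at most 0.54 on the log2 scale in the pairwise comparisons. It had a mean of 7732 CPM in untreated monolayers and 9937 CPM after acute exposure (log2 0.36, edgeR adjusted p = 2.98e-06), and 6189 CPM in untreated aggregates, which was lower (log2 -0.32, edgeR adjusted p = 2.4e-06). It was higher in primed (0.42), treated (0.54) and doubly exposed aggregates (0.41) than in untreated ones, the same direction as SPRY4 and SPRED2. EGFR, another receptor that signals through RAS, was at 86.4 CPM in untreated monolayers and 314 CPM in untreated aggregates (log2 1.86, edgeR adjusted p = 4.44e-23). Unlike ERBB2 it was lower than in untreated aggregates in treated (-0.42) and doubly exposed ones (-0.30), and was not called in primed ones (0.04).

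The cascade that the members restrain was read from 22 of its genes, all tested. After acute exposure 2 (9.09%) were higher and 2 lower, near the 11.3% and 8.91% of all genes. KSR1, a scaffold for RAF and MEK, changed by 0.63 and SOS1, a RAS exchange factor, by -0.29. In aggregates 2 were higher and 13 lower than in monolayers (all genes 32.9% and 31.1%), with SOS1 at 136 CPM against 379 CPM (log2 -1.48). Primed monolayers had 4 higher and 11 lower (all genes 33.7% and 31.6%). Among aggregates 9 were higher and 2 lower after priming (all genes 11.5% and 9.66%). After the late dose 10 were higher and 1 lower (18.8% and 17.9%), and after both 6 higher and 0 lower (17.6% and 17.9%). The 3 exposed groups were all set against the untreated aggregates that also entered the comparison with monolayers. The counts are therefore not separate observations, and the last 2 comparisons cross the library sets. SOS2, another RAS exchange factor, rose by 0.35, 0.29 and 0.49 on the log2 scale in those 3 groups, and the adaptor GAB2 by 0.50 after priming and 0.38 after the late dose. Median changes of the list stayed between -0.23 and 0.15 in these 6 comparisons.

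Of 30 other genes induced by ERK or acting in its feedback, 27 were tested. After acute exposure 10 (37.0%) were higher and 0 lower (median 0.34; all genes 11.3% and 8.91%), led by TRIB1 (0.91), ERRFI1, which encodes an inhibitor of EGFR and HER2 (1.0), and EPHA2 (0.79). In aggregates 14 (51.9%) were higher and 5 (18.5%) lower than in monolayers (median 0.70; all genes 32.9% and 31.1%), with FOS at 47.7 CPM against 2.95 CPM (log2 3.99). Primed monolayers had 17 (63.0%) higher and 6 (22.2%) lower (all genes 33.7% and 31.6%). In primed aggregates 2 (7.41%) were higher and 6 (22.2%) lower (all genes 11.5% and 9.66%), and FOS fell by 0.83 on the log2 scale. In treated aggregates 7 (25.9%) were higher and 7 lower (all genes 18.8% and 17.9%). TRIB1 (0.54) was among the higher, and FOS (-1.44) and MYC (-0.46) were among the lower. Doubly exposed aggregates had 3 (11.1%) higher and 9 (33.3%) lower than untreated ones (all genes 17.6% and 17.9%).

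Of 18 FOXO and PI3K feedback genes, all tested, 9 were higher and 0 lower after acute exposure (all genes 11.3% and 8.91%), with INSR, the insulin receptor, up from 15.5 to 60.3 CPM (log2 1.95). Their counts were 10 higher and 4 lower in aggregates against monolayers (all genes 32.9% and 31.1%) and 8 and 7 in primed monolayers (33.7% and 31.6%). Against untreated aggregates they were 10 and 1 in primed aggregates (11.5% and 9.66%), 10 and 3 in treated ones (18.8% and 17.9%) and 12 and 2 in doubly exposed ones (17.6% and 17.9%). ERBB3, the gene of HER3, rose by 0.51 after acute exposure and by 0.66, 0.52 and 0.57 in those 3 groups of aggregates. For INSR, ERBB3 and IGF1R priming added less on top of the late dose than without it (differences of -0.63, -0.62 and -0.71, all called by edgeR), the same sign as for SPRY4, SPRED2, DUSP6 and ETV4. Each list was read by its counts and median alone.

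Per kilobase of annotated exon, the scale on which levels of different genes can be set side by side, DUSP4 was highest in untreated monolayers at 16.4 CPM per kb, followed by SPRED2 (6.79), DUSP5 (4.33), SPRY4 (3.42), SPRED1 (1.89), ETV4 (1.49), DUSP6 (1.31), SPRY2 (0.774), PHLDA1 (0.622) and ETV5 (0.346). Acute exposure put SPRY4 (16.5) above SPRED2 (12.1) and DUSP5 (8). In untreated aggregates DUSP4 (21.8) and DUSP5 (21) came first, followed by ETV4 (13). The exon lengths are GENCODE unions and need not be those used in counting.

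Across the 21 libraries, which share groups, library sets and controls, Pearson's r of log2 CPM describes which members ran together. It was 0.97 for SPRED1 with ETV4, 0.94 for SPRY4 with SPRED2, 0.91 for DUSP5 with ETV4, 0.90 for DUSP6 with PHLDA1 and 0.87 for SPRY4 with DUSP4. It was -0.22 between both Sprouty genes and -0.28 between ETV4 and ETV5. Outside the set, the genes most like SPRY4 were KMO (0.91), MYEOV (0.91) and RIPOR3 (0.91). Those most like DUSP6 were SYTL5 (0.98), SLC2A10 (0.96) and ERLIN2 (0.96), and those most like ETV4 were SOWAHC (0.98), EOLA1 (0.98) and RND1 (0.97).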

How the data were processed

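RNA was extracted with TRIzol and sequenced as TruSeq libraries, per the labels' protocols. The deposited values are raw gene counts, made with featureCounts on hg38 per the submitters' processing notes, which also name limma. Versions, aligner, annotation and strand setting are not given in the sources used here, so reads of genes that overlap a member (SPRY4-IT1, ETV5-AS1, PHLDA1-AS1, DHX8 beside ETV4, the POC1B-DUSP6 readthrough) cannot be told apart. Columns were matched to samples by title, those of the primed aggregates by the name in the treatment protocol.

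Counts were fitted in edgeR 4.0.16 (R 4.3.3) with TMM, filterByExpr by group, 1 mean for each of 7 groups, 14 residual degrees of freedom and robust two-sided quasi-likelihood tests. The filter removed 584 genes with 0.0116% of counts. Replicate pairs differed by 2.48 to 11.5 times counting variance (chi-squared per degree of freedom, 21 pairs). On simulated data shaped as the acute comparison (15582 genes), 79% of 100 genes changed 1.5-fold were recovered and 3.31% of calls were false.

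The members, gene lists and alternatives were chosen with earlier results of these data known. All 10 members are named. From each list the text names called genes from the 3 with the smallest adjusted p in a comparison (1 of them is not reported here), and for likeness the 3 genes with the highest r to SPRY4, DUSP6 and ETV4. Alternatives were DESeq2 1.42.0, limma voom (3.58.1), RLE size factors, no filter, only the compared groups, a replicate block, leaving out each library, and leaving out the 6 libraries with MYH7 over 1 CPM. Promoter windows are RefSeq's (GRCh38.p14), trimmed of GENCODE 29 exons.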

Additional observations from a re-analysis of the deposited data

Results flagged for a closer look

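These results are listed because edgeR's test of the difference between responses to trastuzumab passed. Between the first exposure of aggregates and that of monolayers the log2 difference was -1.22 for SPRY4, -0.76 for SPRED1, -0.34 for SPRED2, -0.75 for DUSP4, -1.54 for DUSP5, -1.52 for ETV4, -1.57 for ETV5 and -1.37 for PHLDA1. The edgeR adjusted p ran from 9.42e-11 for ETV4 and 9.15e-12 for SPRY4 to 0.0239 for ETV5. Dose and library set differ between the sides, and treated aggregates were 24 h older than untreated ones. Between priming of treated and of untreated aggregates it was -1.01 for SPRY4, -0.57 for SPRED2, -1.05 for DUSP6, -0.44 for ETV4 and 0.60 for DUSP5, the least firm with an edgeR adjusted p = 0.0272. Between priming of aggregates and acute exposure of monolayers, which differ in form of culture and in time since exposure, it was -1.54 for SPRY4, -0.61 for SPRED1, -0.38 for SPRED2, -0.76 for DUSP4, -1.46 for DUSP5 and -1.41 for ETV4. The 3 tests share the untreated aggregates, and the first and last also share the acute response of monolayers. Their signs are thus partly tied, and the share of all genes called in all 3 was not computed. SPRY4, SPRED2, DUSP5 and ETV4 were called in all 3 of these tests, DUSP5 with a sign that was not the same in each.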

How the results depend on the processing

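A member's test counted as unchanged if it stayed on the same side of the threshold, with the same direction where called. Direction was not compared for tests without a call. Of 110 tests of a member in a comparison, 106 were unchanged with DESeq2, 108 with limma voom, 109 with RLE size factors and 110 with no filter. With only the compared groups 101 were unchanged, and 93 without the 6 libraries with MYH7. That last setting leaves 1 library in each of 3 groups, assumed to vary like the other groups, and turned the change of primed against untreated monolayers to 0.84 for PHLDA1 and 1.02 for SPRY2. It also lowered the genes called after acute exposure from 3222 to 727 (525 higher, 202 lower), after priming of aggregates from 3379 to 2176, in the difference of first exposures from 3757 to 1178 and in that of priming against acute exposure from 2411 to 268 (72 higher, 196 lower). Not all 110 tests had an adjusted p with DESeq2 or with only the compared groups. DESeq2 gained 1 member call and lost 2, and only the compared groups gained 5 and lost 2. With only the compared groups, 2 members in place of 1 were called between primed and treated and treated aggregates, of 2050 genes in place of 1274. Primed aggregates had 2177 calls in place of 3379. Leaving out 1 library gave 4 to 6 called members in place of 7 in treated against untreated aggregates (4 without treated aggregate 2), 7 to 8 after acute exposure and 695 to 1138 genes in place of 1274 between primed and treated and treated aggregates (780 without treated aggregate 1, 820 and 695 without doubly exposed aggregate 1 and 2).

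Same-numbered samples of different groups deviated together no more than others (correlation -0.15 to 0.18, median -0.0088, over 63 pairs, with 8 of 21 samples closest to their own number). With the replicate block all 110 member tests were unchanged, with 7 members called after acute exposure. ETV5 (1 to 68 counts a library) and SPRY2 (25 to 87) are limited by depth.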
